A study of Mus musculus with 11 samples.

Results

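Neuropeptide precursor genes encode larger proteins from which short signalling peptides are cut, and 10 of them were followed here in hippocampus of mice that lack the 1b interval of Scn1a. They were Trh, Cartpt, the tachykinin precursors Tac1 and Tac2, the opioid precursors Penk and Pdyn, and Crh, Avp, Adcyap1 and Nts. The 10 genes were selected on measured values of both comparisons given below, so their differences are described with no test and no p-value. Each was matched by its symbol, 10 of 24391 rows in the count table of one sequencing round and 10 of 24015 rows in the other. All 10 passed the low-count filter of the homozygous comparison, which asked for at least 1 CPM (counts scaled to the library total) in at least 1 library. In the heterozygous comparison 9 of 10 passed, and Avp did not.

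As background, neuropeptides are packed into dense-core vesicles, trimmed there by prohormone convertases, carboxypeptidases and amidating enzymes, and released mainly during sustained firing. They act at G protein-coupled receptors, often at some distance from the release site, and are removed by peptidases on the cell surface. Hippocampal granule cells and interneurons make several of these precursors at low levels, dynorphin in mossy fibres being a well-known case. Penk, Tac1 and Pdyn are far more abundant in the medium spiny neurons of the neighbouring striatum, and Avp and Crh are best known from the hypothalamus.

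All 11 mice were C57BL/6N, sampled at postnatal day 32, an age that the labels give only as adult. The 1b+/- mice carried the deletion on 1 allele (3 males and 1 female, n = 4) and were sequenced with 3 WT males in the heterozygous round, with paired-end reads of 150 bases. The 1b-/- mice carried it on both alleles (1 male and 1 female, n = 2) and were sequenced with 2 WT females in the homozygous round, with single-end reads of 50 bases. The deletion was made by Cas9 in oocytes and kept as a mouse line, is present in every cell and from conception, and the hippocampus of 1 hemisphere was taken per mouse. Sex and genotype overlap in part: no WT male is in the homozygous round and no WT female in the heterozygous one. The cause of a difference that moves with sex or round was not tested.

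Library totals ran from 22852858 to 28285623 counts in the heterozygous round and from 20667122 to 36145161 in the homozygous round, so that 1 CPM stood for at least 20.7 counts. Scn1a, the targeted gene (mm9 chr2:66108838-66278897, minus strand), stood at 97.6 CPM ± 15.5 (SD, n = 4) in 1b+/- against 136 ± 31.0 (SD, n = 3) in WT. Its log2 fold change was -0.47 (SE 0.15, edgeR adjusted p = 0.303). The groups overlapped, with 1b+/- replicate 4 at 119.3 CPM and WT replicate 2 at 112.8 CPM. Over 14 alternatives that value ran from -0.59 to -0.27, the last without WT replicate 1, and 0 of them called Scn1a. In 1b-/- Scn1a fell to 21.5 CPM ± 6.80 (SD, n = 2) from 153.2 ± 27.5 (SD, n = 2), a log2 fold change of -2.83 (SE 0.27, edgeR adjusted p = 0.0211). Over 11 alternatives that log2 fold change ran from -3.20 to -2.54 and its adjusted p from 4.87e-23 to 0.101. It was -3.00 (adjusted p = 0.101) without WT replicate 1 and -2.64 (adjusted p = 0.0601) without WT replicate 2 of the homozygous round, fits that hold 1 WT library. Adjusted p-values are from the quasi-likelihood test of edgeR, adjusted by Benjamini-Hochberg over every gene tested. By that measure 0 of 14630 genes (0%) passed 0.05 in the heterozygous comparison, the lowest value being 0.0532, although 1649 had an unadjusted p under 0.05, DESeq2 called 245 and edgeR's likelihood ratio test called 191. In the homozygous comparison 531 of 14838 genes (3.58%) passed, 225 lower and 306 higher. With WT replicate 1 of that round left out, 0 of 14680 genes passed the same test, with 3861 at an unadjusted p under 0.05, so no call of any gene could be kept in that fit.

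Both WT libraries of the homozygous round stood apart in their regional markers. The summed level of 15 striatal medium spiny neuron markers was 8037 and 3344 CPM in those WT libraries and between 387 and 601 CPM in the other 9 libraries. Pde1b, a phosphodiesterase gene and one of the most abundant of these markers, stood at 1256 and 553 CPM against 98.7 to 150 elsewhere. The other, Pde10a, stood at 1320 and 564 CPM against 64.6 to 107. No striatal marker was at 0 in any library. Markers of basal forebrain cholinergic neurons showed the same split, with sums of 115 and 50.3 CPM against 1.78 to 12.3, led by the choline transporter gene Slc5a7 and by Chat, and Lhx8 of this list was at 0 in 4 of the 9. Summed markers of the hippocampus were lower in the same WT pair: dentate granule cells at 193 and 195 CPM against 265 to 391, CA1 pyramidal cells at 312 and 342 against 525 to 889, and CA3 pyramidal cells at 133 and 186 against 318 to 503. Summed neocortex markers were highest in that pair, at 534 and 673 CPM against 311 to 469, and summed septum markers lowest, at 44.0 and 89.6 against 107 to 247. Sums of thalamus, hypothalamus and choroid plexus markers overlapped between the pair and the rest. The CA3 list shares Prkcd with the thalamus list used below. Prkcd stood at 172 CPM in WT replicate 1 and 101 CPM in 1b+/- replicate 4 of the heterozygous round. In whole-tissue RNA, fewer cells of a type and less RNA per cell cannot be told apart. The part of tissue composition in any difference between 1b-/- and WT was not tested.

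The 10 precursors differed widely in level. Per kilobase of annotated exon and with all 11 libraries scaled together, Penk ranked first in all 4 groups, from 10.5 CPM per kb ± 2.13 (SD, n = 4) in 1b+/- to 899 ± 515 (SD, n = 2) in WT of the homozygous round. Avp ranked last in 3 of the groups, at 0.197 CPM per kb ± 0.176 in 1b+/-, 0.135 ± 0.0632 in WT of the heterozygous round and 0.128 ± 0.114 in 1b-/-. Trh moved furthest in the order. It ranked 2nd of 10 in WT of the heterozygous round, at 11.95 CPM per kb ± 4.09 (SD, n = 3), and 9th in 1b+/-, at 0.866 ± 0.649 (SD, n = 4). It also ranked 9th in WT of the homozygous round, at 3.09 ± 0.265, and in 1b-/-, at 0.855 ± 0.728 (SD, n = 2 each). Many neighbours in these orders lay within their spread: in WT of the heterozygous round, Tac1 at 10.2 ± 2.12, Tac2 at 6.83 ± 2.79, Nts at 5.67 ± 1.08, Adcyap1 at 5.23 ± 0.601, Cartpt at 4.56 ± 1.44 and Pdyn at 4.03 ± 1.10 CPM per kb formed a near-continuous series.

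**Figure D1:**
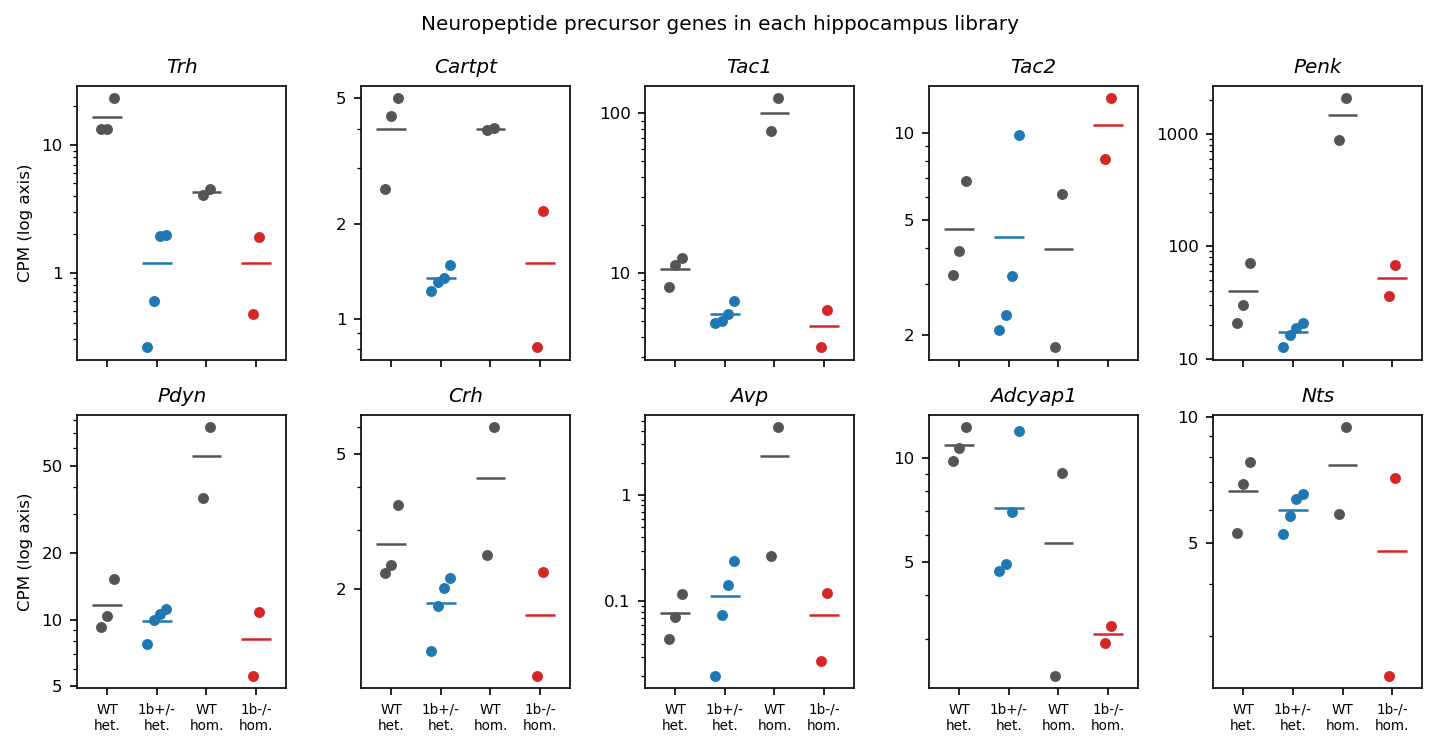
Level of each of the 10 precursor genes in each of the 11 hippocampus libraries, in CPM scaled over all 11 libraries on a log axis (points are mice, bars are group means; het. and hom. are the sequencing rounds; the 1b+/- library with 0 Avp counts is drawn at the foot of its axis). Trh, Cartpt and Tac1 lie lower in all 6 mutants than in all 5 WT mice, while Penk, Tac1 and Pdyn are highest in the WT mice of the homozygous round.

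In the heterozygous comparison all 9 precursors that passed the filter had a negative log2 fold change, from -3.77 for Trh to -0.08 for Tac2, with a median of -0.61. The median over all 14630 genes tested was 0.000735, and 49.7% of those were lower in 1b+/-. The 4 precursors Trh, Cartpt, Tac1 and Crh had every 1b+/- library below every WT library, 4 of 9 beside 6.25% of all genes tested. In the homozygous comparison 9 of the 10 were lower and Tac2 was higher, with a median of -1.62 beside -0.00125 over all 14838 genes. Of the 10, 7 (Trh, Cartpt, Tac1, Penk, Pdyn, Crh and Avp) had both 1b-/- libraries below both WT libraries, where 30.2% of all genes did. Avp passed the filter of that comparison only through WT replicate 2, which held 95 counts, so its direction follows from how it was admitted. Since the genes were picked with these contrasts in view, nothing is read from these shares.

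**Figure D2:**
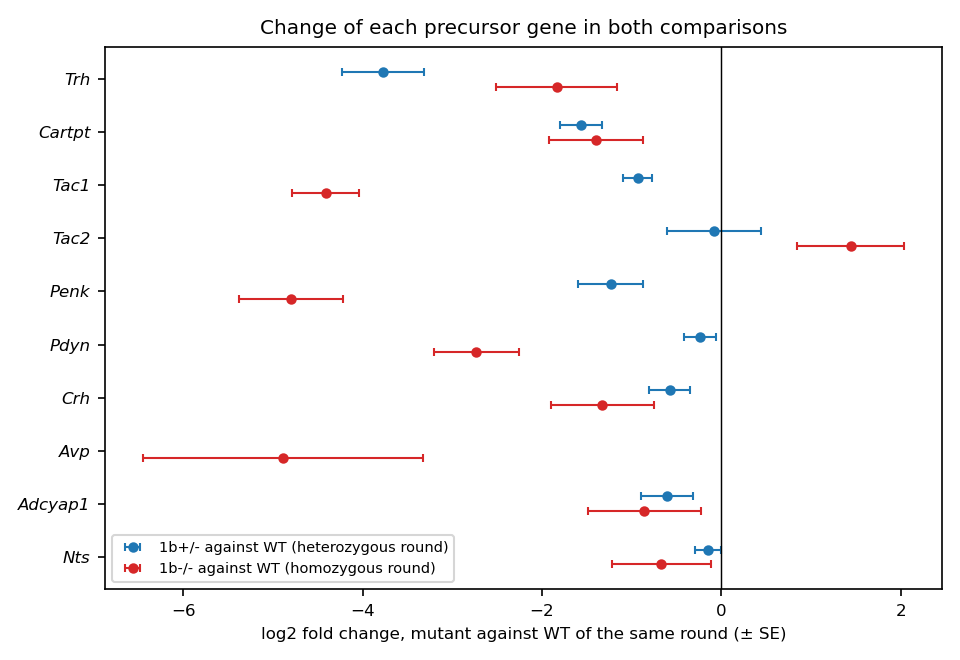
Log2 fold change (± SE, from the edgeR fit) of each precursor gene in 1b+/- against WT of the heterozygous round (blue) and in 1b-/- against WT of the homozygous round (red). Trh has the lowest value of the heterozygous comparison at -3.77, Avp, Penk and Tac1 lie below -4 in the homozygous comparison, and Tac2 alone lies above 0 there. Avp passed the filter of the homozygous comparison only through WT replicate 2.

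Trh encodes prepro-thyrotropin-releasing hormone, the source of a tripeptide that drives thyrotropin release from the pituitary and also modulates neurons in limbic circuits (mm9 chr6:92192055-92194644, minus strand, ENSMUSG00000005892.4). In the heterozygous round the 3 WT libraries held 372, 340 and 515 Trh counts, and the 4 1b+/- libraries held 15, 7, 50 and 55. The groups did not overlap, and the highest 1b+/- library held 12.01% of the WT mean in CPM. The means were 16.3 CPM ± 5.54 (SD, n = 3) in WT and 1.18 ± 0.884 (SD, n = 4) in 1b+/-, a log2 fold change of -3.77 (SE 0.45), or 13.7-fold lower. In the homozygous round the WT libraries held 91 and 99 counts and the 1b-/- libraries 17 and 63. Those groups did not overlap either, at 4.37 CPM ± 0.370 against 1.23 ± 1.05 (SD, n = 2 each), with a log2 fold change of -1.83 (SE 0.67) that was -3.17 without 1b-/- replicate 2 and -1.14 without 1b-/- replicate 1. Scaled over all 11 libraries, Trh was 16.5 CPM ± 5.66 in WT of the heterozygous round and 4.28 ± 0.366 in WT of the homozygous round, while both mutant groups stood at 1.198 ± 0.898 (1b+/-) and 1.18 ± 1.01 (1b-/-). The larger fold in 1b+/- thus went with a higher WT level in that round.

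Cartpt, the source of cocaine- and amphetamine-regulated transcript peptides that act in feeding and reward circuits, was low everywhere (mm9 chr13:100668439-100670638, minus strand, ENSMUSG00000021647.6). Counts were 72, 128 and 98 in WT and 37, 33, 34 and 37 in 1b+/-. The 4 1b+/- libraries lay close together, at 1.32 CPM ± 0.103 (SD, n = 4), below all 3 WT libraries at 3.93 ± 1.23 (SD, n = 3), with a log2 fold change of -1.56 (SE 0.23). In the homozygous round, counts were 90 and 88 in WT and 79 and 27 in 1b-/-, so the replicates of the mutant group differed more than those of WT. In CPM the groups were 4.09 ± 0.0385 and 1.54 ± 0.988 (SD, n = 2 each), with a log2 fold change of -1.40 (SE 0.52) that was -2.27 without 1b-/- replicate 1 and -0.86 without 1b-/- replicate 2.

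Tac1 encodes the precursor of substance P and neurokinin A, tachykinins that excite neurons through the receptor genes Tacr1 and Tacr2 (mm9 chr6:7505071-7512973, plus strand, ENSMUSG00000061762.4). In the heterozygous round it was counted 227, 317 and 251 times in WT and 125, 149, 123 and 189 times in 1b+/-. Every 1b+/- library lay below every WT library, at 5.45 CPM ± 0.811 (SD, n = 4) against 10.4 ± 2.14 (SD, n = 3), and the log2 fold change was -0.93 (SE 0.16). The homozygous round gave 2803 and 1684 counts in WT against 213 and 114 in 1b-/-, a log2 fold change of -4.41 (SE 0.37). Most of that span lay in the WT group. On the scale of all 11 libraries, Tac1 stood at 100.5 CPM ± 33.0 (SD, n = 2) in WT of the homozygous round and at 10.6 ± 2.19 (SD, n = 3) in WT of the heterozygous round, and at 4.67 ± 1.75 (SD, n = 2) in 1b-/- and 5.53 ± 0.828 (SD, n = 4) in 1b+/-.

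Trh, Cartpt and Tac1 were the 3 precursors that separated all 6 mutants from all 5 WT libraries, a rule chosen after the values were seen. The highest mutant and the lowest WT library were at 1.99 and 4.02 CPM for Trh, 2.19 and 2.58 for Cartpt, and 6.69 and 8.12 for Tac1. With library-size CPM and no TMM factors these 3 stayed separated. Among all 14892 genes compared over the 11 libraries, 95 (0.638%) had every mutant below every WT library. Crh missed the separation narrowly, with a highest mutant at 2.25 and a lowest WT library at 2.24 CPM, and the remaining 6 overlapped.

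The promoters of these 3 genes are shown because they had every mutant library below every WT library, a rule chosen after the values were seen. They were taken from RefSeq on GRCm38.p6, a later build than the mm9 coordinates above, which held entries for 8 of the 10 genes, and the 250 bases before each start site are printed 5′ to 3′ on the strand of the gene. Capitals mark a match to TGACNTCA, the cAMP response element TGACGTCA with any base in place of its central G, searched on both strands. The first is chr6:92244651-92244900 (minus strand), the second chr13:99900684-99900933 (minus strand) and the third chr6:7554811-7555060 (plus strand).
Trh: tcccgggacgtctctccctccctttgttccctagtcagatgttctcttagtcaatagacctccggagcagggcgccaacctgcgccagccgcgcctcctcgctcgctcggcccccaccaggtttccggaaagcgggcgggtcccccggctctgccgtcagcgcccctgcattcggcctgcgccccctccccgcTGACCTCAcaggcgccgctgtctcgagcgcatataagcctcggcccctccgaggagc
Cartpt: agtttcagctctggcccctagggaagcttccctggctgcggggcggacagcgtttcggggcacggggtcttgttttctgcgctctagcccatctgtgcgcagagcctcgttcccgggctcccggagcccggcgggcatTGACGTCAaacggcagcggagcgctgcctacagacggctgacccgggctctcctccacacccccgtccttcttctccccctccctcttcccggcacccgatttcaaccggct
Tac1: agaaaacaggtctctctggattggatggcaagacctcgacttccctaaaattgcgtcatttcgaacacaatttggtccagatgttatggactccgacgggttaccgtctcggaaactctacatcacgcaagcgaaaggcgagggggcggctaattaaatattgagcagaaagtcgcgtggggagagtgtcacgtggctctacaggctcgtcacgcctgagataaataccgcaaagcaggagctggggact

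The element in the Cartpt promoter was the full TGACGTCA and began 112 bases before the start site. The one in the Trh promoter was TGACCTCA and began 57 bases before it. Nts held TGACATCA, 67 bases before its start site, and no other member window matched, including the one of Tac1. Across 32851 RefSeq windows of 300 bases (250 before and 50 after a start site), 8.83% held TGACNTCA and 1.79% held TGACGTCA, which the first pattern includes. The AP-1 sequence TGANTCA, searched in the same way, was in 7.81% of the windows and in those of Avp and Nts. These are matches of letters and say nothing of binding by a factor.

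Tac2, the source of neurokinin B, went a different way from Tac1 (mm9 chr10:127162448-127168823, plus strand, ENSMUSG00000025400.3). Counts were 190, 83 and 87 in WT and 52, 86, 59 and 279 in 1b+/-, so the groups overlapped and 1b+/- replicate 4 held the highest count of the round. The log2 fold change of -0.08 (SE 0.53) was -0.87 without that library and 0.31 without WT replicate 1. Those 2 libraries also had the highest summed thalamus markers of the round, 347 and 480 CPM against 95.8 to 212, with Prkcd at 101 and 172 CPM and Plekhg1 at 77.7 and 108, and the highest cholinergic sums, 12.3 and 8.23 CPM against 2.08 to 6.59. The part of neighbouring tissue in the Tac2 values was not tested. In the homozygous round both 1b-/- libraries, with 294 and 438 counts, lay above both WT libraries, with 41 and 134. The log2 fold change was 1.44 (SE 0.59), and leaving out WT replicate 2 made it 2.57 and leaving out WT replicate 1 made it 0.82.

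The opioid precursors were marked by the WT libraries of the homozygous round. Penk encodes proenkephalin, the source of Met- and Leu-enkephalin, which act mainly at delta and mu opioid receptors (mm9 chr4:4060678-4065966, minus strand, ENSMUSG00000045573.9). It was counted 46736 and 19069 times in those WT libraries and 1302 and 2270 times in 1b-/-, a log2 fold change of -4.80 (SE 0.58). In the heterozygous round, WT held 576, 1804 and 665 counts and 1b+/- held 316, 501, 522 and 462. These groups overlapped by a narrow margin, with 1b+/- replicate 3 at 20.44 CPM and WT replicate 1 at 20.37 CPM. The log2 fold change there was -1.24 (SE 0.36), and -0.55 without WT replicate 2. That WT library had the highest striatal sum of the round, 601 CPM against 387 to 430 in the other 6, with Pde10a at 107 CPM and Pde1b at 150 CPM.

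Pdyn encodes prodynorphin, the source of dynorphins that act at the kappa opioid receptor (mm9 chr2:129512301-129525580, minus strand, ENSMUSG00000027400.5). The heterozygous round gave 292, 391 and 206 counts in WT and 281, 286, 195 and 283 in 1b+/-, which overlapped. Its log2 fold change was -0.23 (SE 0.18), and 0.01 without WT replicate 2. In the homozygous round the WT libraries held 1690 and 774 counts and the 1b-/- libraries 392 and 185, with no overlap and a log2 fold change of -2.73 (SE 0.48). Against the scale of all 11 libraries, Pdyn at 8.22 CPM ± 3.76 (SD, n = 2) in 1b-/- lay beside 9.91 ± 1.52 (SD, n = 4) in 1b+/- and 11.6 ± 3.18 (SD, n = 3) in WT of the heterozygous round, and WT of the homozygous round stood apart at 55.1 ± 27.7 (SD, n = 2). Penk gave 52.2 CPM ± 22.8 in 1b-/-, 17.1 ± 3.48 in 1b+/-, 40.2 ± 26.4 in WT of the heterozygous round and 1470 ± 842 in WT of the homozygous round.

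Relative to the striatal markers the 3 precursors did not behave alike. Penk was 0.257 and 0.261 of the striatal sum in the WT libraries of the homozygous round, 0.0792 and 0.151 in 1b-/-, and 0.0322 to 0.117 in the heterozygous round. Pdyn was 0.00929 and 0.0106 of that sum in the same WT libraries, 0.0238 and 0.0123 in 1b-/- and 0.0185 to 0.0286 in the heterozygous round, so its share was lowest where its level was highest. Tac1 was 0.0154 and 0.0231 of the sum in those WT libraries, 0.0129 and 0.00759 in 1b-/-, 0.0117 to 0.0168 in 1b+/- and 0.0189 to 0.0265 in WT of the heterozygous round. In the heterozygous round the striatal sums were 387 to 419 CPM in 1b+/- and 425 to 601 CPM in WT. The Tac1 shares did not overlap between genotypes there, but neither did Tac1 itself in CPM. Since Tac1 was selected on this contrast, nothing is read from these shares.

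**Figure D3:**
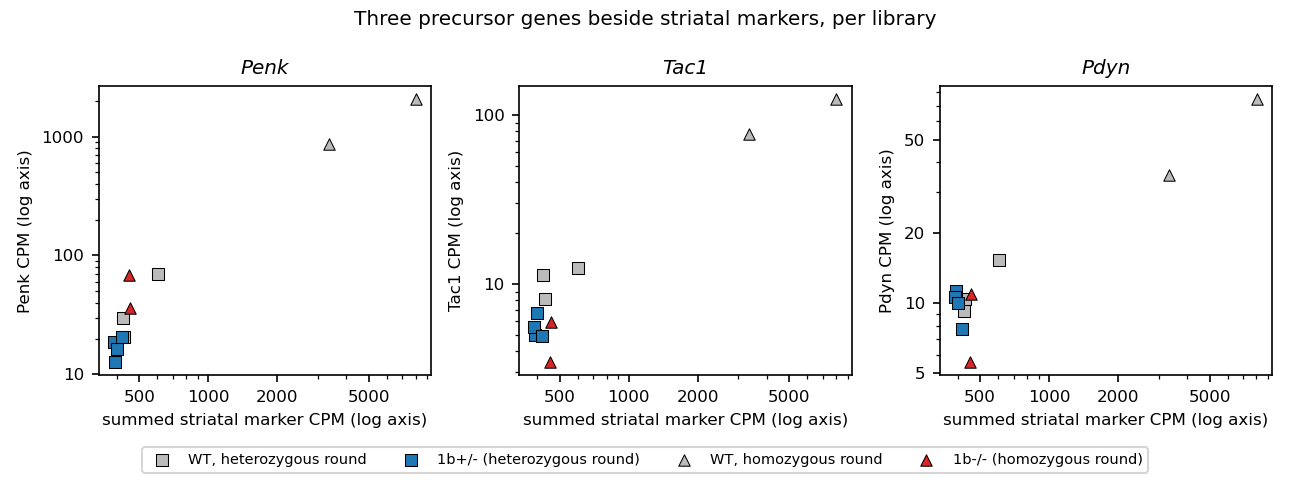
Penk, Tac1 and Pdyn (CPM scaled over 11 libraries) against the summed CPM of 15 striatal medium spiny neuron markers, 1 point per library, both axes logarithmic; squares are the heterozygous round, triangles the homozygous round. The WT pair of the homozygous round lies at sums of 3344 and 8037 CPM, far from the 9 libraries between 387 and 601 CPM.

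Crh and Avp, best known from the hypothalamus, were among the less abundant precursors, Crh ranking 8th or 9th and Avp 7th or 10th of the 10 per kilobase in the 4 groups. Crh, the source of corticotropin-releasing hormone, the peptide that starts the pituitary stress response, held 66, 91 and 50 counts in WT and 33, 58, 45 and 57 in 1b+/- (mm9 chr3:19593401-19595396, minus strand, ENSMUSG00000049796.4). In CPM every 1b+/- library was below every WT library, although the closest were 2.13 and 2.20 CPM, and the log2 fold change was -0.58 (SE 0.23), and -0.33 without WT replicate 2. The homozygous round gave 57 and 131 counts in WT and 81 and 37 in 1b-/-, or 2.57 and 6.13 CPM against 2.30 and 1.16, with a log2 fold change of -1.33 (SE 0.57) that was -0.57 without WT replicate 2. Avp, the precursor of vasopressin, was at 2, 3 and 1 counts in WT and 0, 2, 6 and 4 counts in 1b+/-, too few for a fold (mm9 chr2:130406356-130408290, minus strand, ENSMUSG00000037727.6). Its homozygous log2 fold change of -4.89 (SE 1.56) rested on WT replicate 2, which held 95 counts beside 6 in WT replicate 1 and 1 and 4 in the 1b-/- libraries. Summed hypothalamus markers were low throughout, at 6.98 and 8.67 CPM in those WT libraries, 4.69 and 8.13 in 1b-/- and 2.76 to 4.79 in the heterozygous round, led by Hdc and Pomc. WT replicate 2 also held the highest levels of Pmch, at 2.25 CPM against at most 0.212 elsewhere, and of Oxt, at 1.15 CPM against at most 0.241. Hcrt, Otp and Nr5a1 were also highest there, at 0.275, 0.229 and 0.413 CPM. The list did not move as a set: Agrp was lowest in that library, at 0.183 CPM, and Pomc, Hdc and Sim1 were higher in other libraries. Nr5a1, another of these markers, was at 0 in all 7 libraries of the heterozygous round.

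Adcyap1 encodes PACAP, a peptide that raises cAMP through its receptor gene Adcyap1r1 (mm9 chr17:93598762-93604825, plus strand, ENSMUSG00000024256.6). Counts were 274, 315 and 238 in WT and 118, 187, 124 and 338 in 1b+/-. All but 1b+/- replicate 4 lay below WT, with a log2 fold change of -0.61 (SE 0.29), and -0.98 without that library. In the homozygous round 53 and 197 counts in WT overlapped with 118 and 97 in 1b-/-. The sign of that log2 fold change of -0.86 (SE 0.63) depended on 1 WT library, being 0.42 without WT replicate 2. Nts, the precursor of neurotensin, differed least in 1b+/- after Tac2 (mm9 chr10:101944394-101953052, minus strand, ENSMUSG00000019890.3). It held 148, 177 and 174 counts in WT and 164, 156, 132 and 180 in 1b+/-, with a log2 fold change of -0.15 (SE 0.14). The homozygous round gave 214 and 128 counts in WT and 258 and 80 in 1b-/-, which overlapped, with a log2 fold change of -0.67 (SE 0.55) that was -1.64 without 1b-/- replicate 1 and -0.10 without 1b-/- replicate 2.

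Receptors and binding proteins of these peptides were tested over all genes with edgeR's quasi-likelihood test. This list, like the 2 related lists below, was chosen with earlier results of these data known. It is not an independent test, and its shares of called genes are descriptions. Of 20 listed genes 16 passed the filter in each comparison. In 1b+/- 10 of the 16 were lower and 6 higher, with a median log2 fold change of -0.21, and 0 passed the adjusted threshold, with 3 at an unadjusted p under 0.05 (2 lower and 1 higher). DESeq2 and the likelihood ratio test each called 2. Tacr1, the substance P receptor gene, had the smallest p, and its 4 1b+/- libraries at 2.16, 2.57, 2.54 and 3.76 CPM lay below its 3 WT libraries at 4.88, 7.60 and 5.95 CPM. The log2 fold change was -1.15 (SE 0.21, edgeR adjusted p = 0.0927), and the adjusted p ran from 0.000252 to 0.734 over 14 alternatives, 3 of which called it. Trhr, a receptor gene for the Trh peptide, followed at 10.3 CPM ± 2.33 (SD, n = 4) against 22.0 ± 7.23 (SD, n = 3), a log2 fold change of -1.09 (SE 0.23, edgeR adjusted p = 0.146), with every 1b+/- library at or below 11.9 CPM and every WT library at or above 15.6. It was called in 3 of 14 alternatives, with adjusted p from 0.00139 to 0.979. Without WT replicate 1, a fit in which 421 of 14591 genes were called, the adjusted p was 0.0171 for Tacr1 and 0.0157 for Trhr, and the log2 fold change was -1.29 for each.

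In 1b-/- 8 of the 16 receptor and binding protein genes were lower and 8 higher, with a median of -0.17, and 2 (12.5%) fell, beside 3.58% of all genes called in either direction. Trhr2, lower and not called, passed the filter only through WT libraries, so its direction follows from how it was admitted. Oprk1, the kappa opioid receptor gene, stood at 1.39 and 1.69 CPM in 1b-/- against 21.4 and 12.7 in WT, a log2 fold change of -3.47 (SE 0.34, edgeR adjusted p = 0.0216). Tacr1 stood at 2.53 and 3.88 CPM against 38.5 and 19.5, a log2 fold change of -3.18 (SE 0.42, edgeR adjusted p = 0.0307). WT of the heterozygous round, scaled within that round, held less of both, with Oprk1 at 4.25 CPM ± 1.34 and Tacr1 at 6.14 ± 1.37 (SD, n = 3). The 1b+/- means were 2.97 and 2.76 CPM. The part of tissue composition in these falls was not tested. Over 11 alternatives the log2 fold change ran from -3.80 to -3.03 for Oprk1 and from -3.59 to -2.60 for Tacr1. The adjusted p started from 8.96e-16 for Oprk1 and 1.44e-12 for Tacr1 and reached 0.101 for each in the fit without WT replicate 1, where no gene was called. Trhr did not follow the heterozygous pattern, at 4.996 and 1.25 CPM in 1b-/- and 1.26 and 3.18 in WT, with a log2 fold change of 0.50 (SE 0.78, edgeR adjusted p = 0.721). Whether the Trhr difference itself differed between the comparisons was not tested.

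**Figure D4:**
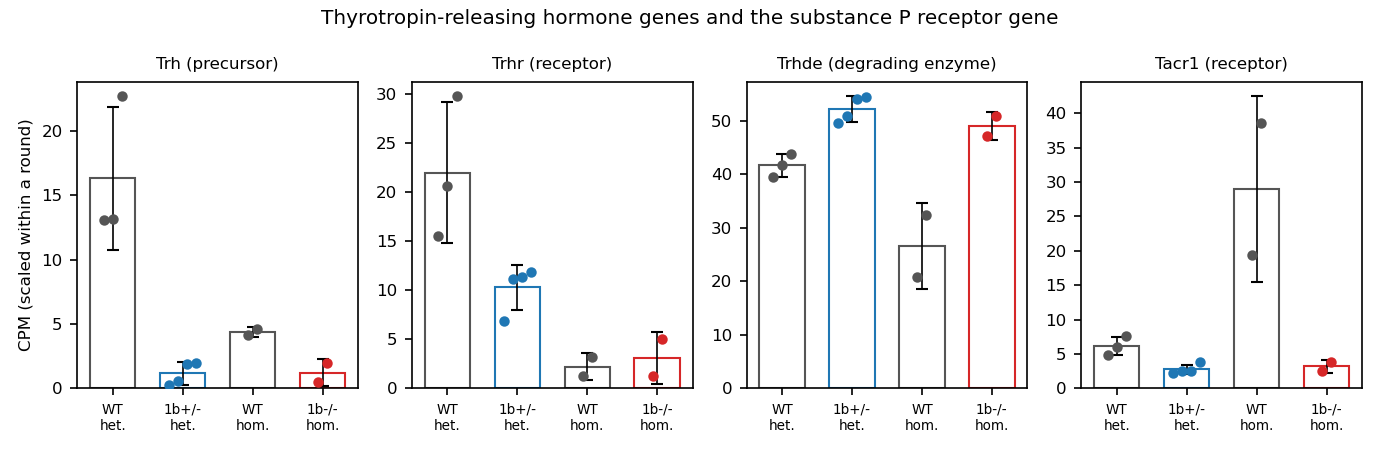
Trh with its receptor gene Trhr and its degrading enzyme gene Trhde, and the substance P receptor gene Tacr1, in CPM scaled within each round (points are mice, bars are means, error bars are SD; n = 3, 4, 2 and 2 from left to right). Trhr is 22.0 against 10.3 CPM in the heterozygous round, Trhde is higher in the mutants of both rounds, and Tacr1 in WT of the homozygous round stands at 29.0 CPM.

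Enzymes that process propeptides or break down peptides gave 24 tested genes of 24 listed. In 1b+/- 13 were lower and 11 higher, the median was -0.01, and 0 passed the adjusted threshold in edgeR's quasi-likelihood test, with 5 at an unadjusted p under 0.05 (3 lower and 2 higher) and 1 call each by DESeq2 and the likelihood ratio test. Trhde, which encodes the ectoenzyme that degrades the Trh peptide, had the smallest p and was higher in every 1b+/- library, at 49.5 to 54.3 CPM against 39.5 to 43.7 in WT. Its log2 fold change was 0.32 (SE 0.05, edgeR adjusted p = 0.0777), with adjusted p from 0.000436 to 0.979 over 14 alternatives, of which 4 called it. Without WT replicate 1 it was 0.0143. Qpct, a glutaminyl cyclase gene that forms the N-terminal pyroglutamate of such peptides, was next at 10.4 CPM ± 0.837 (SD, n = 4) against 12.9 ± 1.31 (SD, n = 3), with a log2 fold change of -0.32 (SE 0.10, edgeR adjusted p = 0.281). In 1b-/- 10 of the 24 were lower and 14 higher, with a median of 0.19, and 1 (4.17%) fell, a share near the 3.58% of all genes. Mme, the gene for neprilysin, which cleaves enkephalins and substance P, stood at 7.95 and 5.39 CPM against 50.1 and 33.8 in WT, a log2 fold change of -2.65 (SE 0.29, edgeR adjusted p = 0.0251). Over 11 alternatives the log2 fold change of Mme in 1b-/- ran from -2.96 to -2.34, and 10 of them called it. Trhde stood at 47.2 and 50.9 CPM in 1b-/- and 20.9 and 32.3 in WT, a log2 fold change of 0.88 (SE 0.23, edgeR adjusted p = 0.0940).

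Other neuropeptide precursors made up a list of 45, of which 18 passed the filter in the heterozygous and 23 in the homozygous comparison. In 1b+/- 12 were lower and 6 higher around a median log2 fold change of -0.05, and 0 passed the adjusted threshold in edgeR's quasi-likelihood test, 0 in DESeq2 and 0 in the likelihood ratio test, with 4 at an unadjusted p under 0.05, all lower. The smallest p-values belonged to Vip, at 19.1 CPM ± 1.78 (SD, n = 4) against 22.8 ± 2.78 (SD, n = 3; log2 fold change -0.25, edgeR adjusted p = 0.378), and Npy, at 20.2 ± 1.499 against 24.3 ± 3.95 (log2 fold change -0.26, edgeR adjusted p = 0.393), both interneuron peptides. In 1b-/- 13 were lower and 10 higher around a median of -0.12, and 2 rose and 1 fell (13% in all, beside 3.58% of all genes). Pmch, Oxt and Kiss1 passed the filter only through WT libraries, and Gal, Calca and Npb only through 1b-/- libraries. Their directions, which enter these counts and the median, follow from how they were admitted, and none of them was called. Grp, the gastrin-releasing peptide gene, rose from 3.04 CPM ± 0.402 to 23.4 ± 2.85 (SD, n = 2 each), a log2 fold change of 2.94 (SE 0.21, edgeR adjusted p = 0.0191). Cck, the cholecystokinin gene, rose from 155 CPM ± 35.4 to 403 ± 78.8, a log2 fold change of 1.38 (SE 0.23, edgeR adjusted p = 0.0469). Apln, the apelin gene, fell from 53.7 CPM ± 3.81 to 18.6 ± 5.45, a log2 fold change of -1.53 (SE 0.23, edgeR adjusted p = 0.0372). In WT of the heterozygous round, scaled within that round, Grp stood at 11.2 CPM ± 2.93, Cck at 185 ± 9.48 and Apln at 22.4 ± 4.45 (SD, n = 3). The WT levels of Grp and Apln thus differed between rounds. The part of tissue composition in these 1b-/- differences was not tested. Without WT replicate 1 the log2 fold changes were 2.82 for Grp, 1.17 for Cck and -1.45 for Apln, with adjusted p of 0.101, 0.121 and 0.122. Without WT replicate 2 they were 1.63 for Cck (adjusted p = 0.0744) and -1.60 for Apln (adjusted p = 0.0963). The lowest values over the 11 alternatives were 5.28e-21, 1.77e-07 and 4.26e-07 for Grp, Cck and Apln.

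**Figure D5:**
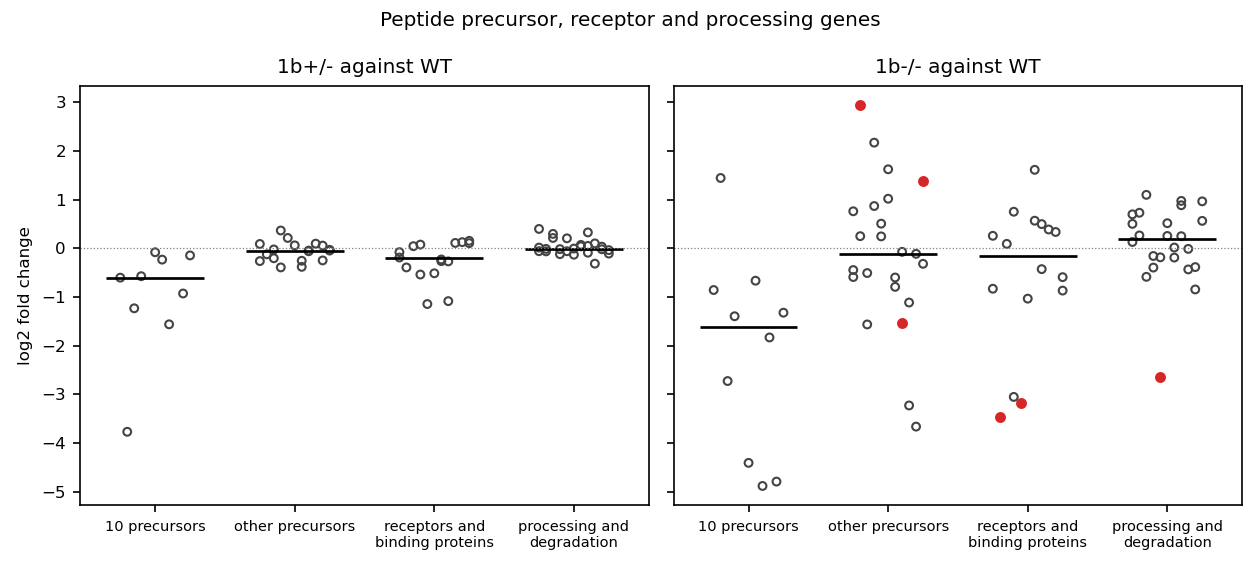
Log2 fold change of each tested gene of the 10 precursors, the other neuropeptide precursors, the receptors and binding proteins, and the processing and degrading enzymes, in 1b+/- (left) and 1b-/- (right) against WT of the same round (circles are genes, lines are medians, red circles passed an edgeR adjusted p of 0.05, which was not asked of the 10 precursors). In 1b+/- the medians are -0.61, -0.05, -0.21 and -0.01 and no circle is red, and in 1b-/- they are -1.62, -0.12, -0.17 and 0.19; the 10 precursors were picked with these values known.

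Marker lists of cell types and regions were read beside these values with the same test. In the heterozygous comparison 0 of the 88 tested markers of the 12 lists passed edgeR's quasi-likelihood test, with 26 at an unadjusted p under 0.05, 6 called by DESeq2 and 5 by the likelihood ratio test. The medians ran from -0.38 for 13 striatal markers, 12 of which were lower, to 0.60 for 7 choroid plexus markers, all with a positive log2 fold change. The choroid plexus sums overlapped, at 60.6, 1211, 2693 and 2206 CPM in 1b+/- and 765, 968 and 1129 CPM in WT. Thalamus markers had a median of -0.23, 11 GABAergic interneuron markers -0.25, cholinergic markers 0.09, septum markers 0.07, hypothalamus markers -0.07, neocortex markers 0.02, dentate granule cell markers 0.23, CA1 markers 0.18, CA3 markers -0.01 and immediate early genes 0.29. In the homozygous comparison 12 of 15 striatal and 4 of 7 cholinergic markers fell, with medians of -4.29 and -4.45. Of 9 neocortex markers 3 were called, Rorb, Rspo1 and Foxp2, all lower. The most abundant of that list were not called: Hs3st4 was at 89.4 and 106 CPM in 1b-/- against 71.7 and 72.8 in WT, and Rasgrf2 at 74.9 and 68.5 against 43.4 and 86.6. Of 10 immediate early genes, Arc and Egr2 were called, both lower, and Egr1, the most abundant beside Arc, was not. Among hippocampal markers the calls were higher: Prox1, C1ql2 and Lct, 3 of 8, for dentate granule cells, Fibcd1 and Lefty1, 2 of 6, for CA1, and Cpne4, Grik4 and Iyd, 3 of 7, for CA3, with none called lower. Lefty1, Iyd and Tdo2, a dentate marker not called, passed the filter only through 1b-/- libraries, so their direction follows from how they were admitted. The most abundant dentate markers did not follow these, Stxbp6 being at 82.9 and 55.95 CPM in 1b-/- against 44.7 and 83.3 in WT and Pdzd2 at 46.8 and 70.2 against 121 and 82.6. Mpped1 and Wfs1, the most abundant of CA1, and Ociad2, next to Cpne4 in CA3, were not called. Of 11 interneuron markers Gad2 was called lower and Cck and Htr3a higher, while Gad1, the most abundant beside Gad2, was not called, and Vip, Npy and Cck are also members of the list of other precursors. The septum list (led by Matn2 and Trpc4), the hypothalamus list, the thalamus list and the choroid plexus list (led by Ttr and Kl) had no call in that comparison, with medians of 1.004, -0.72, -0.14 and 1.26. Choroid plexus sums ranged from 53.0 to 13114 CPM over the 11 libraries and were highest in 1b-/- replicate 2.

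Genes whose pattern over the 11 libraries lay closest to each precursor were found among 13672 non-member genes, by the root mean square (RMS) difference of their log2 CPM deviations from the round mean. The libraries share depth, round and tissue composition, so this is a description only. Penk lay closest to Drd2, the dopamine D2 receptor gene of striatal neurons (RMS 0.37), and Slc35d3 (0.41). Tac1 lay closest to Rxrg (0.25) and Gpr52 (0.27), and Pdyn to Rasd2 (0.15) and Pde1b (0.20), both in the striatal marker list. For Trh no gene came close, the nearest being 4932411E22Rik and Ecel1 at 1.10 each, while its own deviations had an SD of 2.09. Cartpt lay closest to Smpdl3b (0.30) and Otof (0.34). The nearest genes to Tac2 were Zic5 and the calretinin gene Calb2 (0.43 each). Crh lay closest to BC035044 (0.22) and Tmem132d (0.26), Adcyap1 to Susd2 and Pmaip1 (0.32 each), and Nts to A230103J11Rik (0.19) and Barx2 (0.20). Avp, with its few counts, had Zfp820 (0.88) and Klhl14 (0.89) nearest. Among the precursors themselves the closest pairs were Crh and Adcyap1 (0.41) and Tac1 and Penk (0.52).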

How the data were processed

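Stranded mRNA libraries of hippocampus from 11 mice in 4 groups were analysed. The raw counts per gene were deposited by the authors, who used STAR 2.7.2 for alignment to mm9 and featureCounts for counting, without normalization or a filter. The strand setting of the counting is not given in the sources used here, so genes that overlap or lie antisense to another are uncertain. Among the symbols, 27 per round had become dates (0.300% to 0.372% of the counts), and these rows stayed in the fits. All columns were used. The labels do not say that replicates of a group were separate litters, so p-values measure the spread between these mice.

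Genes reaching 1 CPM in 1 or more libraries were fitted with edgeR 4.0.16 in R 4.3.3 (TMM, glmQLFit, glmQLFTest), each mutant group against WT of its round, with a threshold of 0.05 on the Benjamini-Hochberg adjusted p over all genes tested. SE was taken as the size of the log2 fold change over the root of F. Levels across rounds were TMM-scaled over all 11 libraries for the 23645 symbols in both tables. Gene positions and exon lengths came from GENCODE on mm9, promoters from RefSeq on GRCm38.p6. The members, related lists and marker lists were chosen with earlier results of these data known. Named were all 10 members, up to 4 genes per related list with adjusted p under 0.05 (otherwise the 2 with the smallest p), the 2 most abundant markers of each list, the 2 genes closest to each member and Scn1a. Genes named under 1 comparison are given in the other where they concern the same peptide. Pmch, Oxt, Hcrt, Otp, Agrp, Sim1, Nr5a1, Lhx8 and the called markers of lists with 3 or fewer calls were named after their values were seen. So were the genes named for passing the filter through a single group. The separation over 11 libraries was chosen then too. Alternatives were RLE factors, no filter, filterByExpr, DESeq2 1.42.0, the likelihood ratio test, a sex term, a joint fit of the 11 libraries, and leaving out single libraries. The only female of the heterozygous round and the only male of the homozygous round were mutants. The sex term therefore gave nearly the log2 fold changes of the fit without that mouse, and is not a separate alternative. The scripts were tested on simulated data. The authors' own comparisons, P7 libraries and protein sequences were not used here.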

Additional observations from a re-analysis of the deposited data

Results flagged for a closer look

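In groups of 4 libraries, a value was picked out where its gap to the nearest other library exceeded Dixon's 95% critical value. Of 34 groups examined 3 met this, and chance gives about 1 in 20. Tac2 stood at 9.72 CPM in 1b+/- replicate 4 against 2.05 to 3.15 CPM in the other 3 libraries. The summed basal forebrain cholinergic markers stood at 12.3 CPM in that same library against 2.08 to 2.99 CPM. Trhr stood at 6.85 CPM in 1b+/- replicate 1, with the other 3 at 11.2 to 11.9 CPM.

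Grp was picked out because every 1b+/- library, at 9.56 to 11.1 CPM, lay below the WT mean of its round, 11.2 CPM, and every 1b-/- library above that of its own. The WT libraries of the heterozygous round ran from 9.05 to 14.5 CPM and overlapped with 1b+/-, where the log2 fold change was -0.13 (SE 0.15, edgeR adjusted p = 0.797), so no change in 1b+/- was called. The log2 fold change in 1b-/- minus that in 1b+/- was 3.07, and this difference was not tested. Each value is against WT of its own round, and the WT mean of Grp was 3.04 CPM in the homozygous round beside 11.2 CPM in the heterozygous one.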

How the results depend on the processing

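The number of genes called at an adjusted p of 0.05 moved with the test, the filter, the libraries in the fit and single libraries left out. In the heterozygous comparison, 0 of all genes in edgeR's quasi-likelihood test (1649 at an unadjusted p under 0.05) became 44 with no filter, 245 with DESeq2, 191 with the likelihood ratio test and 0 to 421 with 1 library left out, 421 being without WT replicate 1. Among receptors 0 became 2 with DESeq2 and 2 with the likelihood ratio test and 0 to 2 on leaving 1 out, and among processing genes 1 with no filter, 1 with DESeq2, 1 with the likelihood ratio test and 0 to 1. In the homozygous comparison, 531 genes became 1029 with no filter, 2144 with DESeq2, 1829 with the likelihood ratio test, 5522 with all 11 libraries in 1 fit and 0 (without WT replicate 1) to 693 on leaving 1 out, with 192 without WT replicate 2. The 3 among other precursors became 5 with the likelihood ratio test, 8 with all 11 libraries and 0 to 4. The 2 among receptors became 4 with no filter, 6 with DESeq2, 4 with the likelihood ratio test, 4 with sex as a covariate, 7 with all 11 libraries and 0 to 4. The 1 among processing genes became 3, 7 and 4 with the first 3 of these, 12 with all 11 libraries and 0 to 1. The cause was not tested.

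Trh, Cartpt, Tac1, Penk, Crh and Nts were lower in the mutants under every alternative run in both comparisons, Trh between -4.13 and -3.43 in 1b+/- and between -3.17 and -1.14 in 1b-/-. The sign of Tac2 (-0.88 to 0.31) and Pdyn (-0.37 to 0.01) in 1b+/- and of Adcyap1 in 1b-/- (-1.52 to 0.42) changed with a library left out. For the 10 precursors these are descriptions with no call, since they were chosen on these contrasts. With sex as a covariate the 1b-/- values of Cartpt and Nts were -2.27 and -1.64, the same as without 1b-/- replicate 1, the only male of that round. The sex term thus does not separate sex from genotype. At 2 mice a group, the spread between mice limits the homozygous comparison. No paired analysis was possible because the labels give no replicate numbers shared between groups.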
